A study of Mus musculus with 4 samples.

Results

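The immunoproteasome and the class I peptide-loading machinery were followed through 9 genes: Psmb8, Psmb9 and Psmb10 (inducible proteasome subunits), Tap1, Tap2 and Tapbp (peptide transport and loading), Nlrc5 and Irf1 (transcriptional regulators) and Cd274 (the PD-1 ligand PD-L1). They were taken by symbol from the 25636 genes listed in the count matrices, and all 9 were listed, each under 1 gene ID. The matrices come from nuclei of the kidney cortex of female mice, 1 library for each of 4 groups: MRL/lpr at 6 weeks, C57BL/6 at 6 weeks, MRL/lpr at 10 weeks and C57BL/6 at 10 weeks. Nuclei were sequenced by droplet-based 3′ capture, in which each counted molecule carries a unique molecular identifier (UMI). MRL/lpr mice carry the lpr mutation of the death receptor gene Fas in all their cells and develop a lupus-like nephritis, and the groups include no MRL animals whose Fas is intact. In every ratio between strains the lpr mutation, the remaining MRL background and the disease cannot be told apart. How many animals went into a library is not given in the sources used here. With 1 library per group no test between groups was possible, no difference has a replicate check, and every interval is a 95% interval that covers counting error only.

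Proteasomes cut cytosolic proteins into peptides. Interferon gamma makes cells exchange the catalytic subunits encoded by Psmb5, Psmb6 and Psmb7 for those encoded by Psmb8, Psmb9 and Psmb10, which gives the immunoproteasome. The TAP transporter then carries the peptides into the endoplasmic reticulum, where tapasin holds MHC class I molecules ready to bind them. Irf1 is induced by interferon and switches on much of this set, and Nlrc5 is the coactivator of MHC class I genes. In the kidney, tubular epithelium is known to raise class I presentation and PD-L1 under interferon.

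The gene IDs, as listed, were ENSMUSG00000024338 for Psmb8, ENSMUSG00000096727 for Psmb9, ENSMUSG00000031897 for Psmb10, ENSMUSG00000037321 for Tap1, ENSMUSG00000024339 for Tap2, ENSMUSG00000024308 for Tapbp, ENSMUSG00000074151 for Nlrc5, ENSMUSG00000018899 for Irf1 and ENSMUSG00000016496 for Cd274. By these IDs, GENCODE mouse release 21 places Psmb8, Psmb9, Tap1, Tap2 and Tapbp on chromosome 17. They were grouped beforehand as members in the major histocompatibility complex (MHC), a grouping that the annotation itself does not state. Along the chromosome their order was Tapbp, H2-K1, Psmb9, Tap1, Psmb8, Tap2. The other 4 lie elsewhere, Psmb10 and Nlrc5 on chromosome 8, Irf1 on chromosome 11 and Cd274 on chromosome 19. MRL and C57BL/6 mice carry different MHC haplotypes, so sequence differences may change what is counted for the 5 MHC members, and they are given apart from the other 4 below. The Psmb9 and Tap1 annotations overlap on opposite strands, and use of strand in counting is not given in the sources used here, so UMIs from the shared stretch could belong to either gene.

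Promoter windows of RefSeq, from 250 bases before to 50 bases after a gene's start in build GRCm38.p6, were found for 7 of the 9 members, all but Tap2 and Nlrc5, with 8 windows in all. Both strands of each were searched for the gamma-activated sequence of interferon-responsive promoters (GAS, TTCNNNGAA), an interferon regulatory factor (IRF) element (GAAA, any 2 bases, GAAA) and a kappa B motif (GGGA, any 2 bases, TTCC). Only the GAS motif was found, in 1 window of Psmb8 and 1 of Irf1, and 8.3% of all 32851 mouse promoter windows of the same length hold it. The IRF element is in 3.44% and the kappa B motif in 1.47% of all windows. The first 2 sequences below are shown because they hold these matches, in capitals, and the third because it is nearly the same stretch as the Psmb9 window, with 275 bases in common on the other strand. The windows lie at chr17:34197945-34198244 for Psmb8, chr11:53769764-53770063 for Irf1 and chr17:34187306-34187605 for Tap1, all on the plus strand.
Psmb8: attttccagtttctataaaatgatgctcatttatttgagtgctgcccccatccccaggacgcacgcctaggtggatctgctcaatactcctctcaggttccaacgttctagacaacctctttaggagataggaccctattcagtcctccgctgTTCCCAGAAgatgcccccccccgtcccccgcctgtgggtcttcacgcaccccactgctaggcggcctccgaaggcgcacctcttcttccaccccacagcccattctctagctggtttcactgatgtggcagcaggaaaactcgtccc
Irf1: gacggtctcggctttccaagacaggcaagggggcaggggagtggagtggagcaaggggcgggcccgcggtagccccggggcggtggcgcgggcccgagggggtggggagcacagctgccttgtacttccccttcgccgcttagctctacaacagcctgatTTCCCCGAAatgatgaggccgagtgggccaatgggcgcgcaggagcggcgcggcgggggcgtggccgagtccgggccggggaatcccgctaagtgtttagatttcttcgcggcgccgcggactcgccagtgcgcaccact
Tap1: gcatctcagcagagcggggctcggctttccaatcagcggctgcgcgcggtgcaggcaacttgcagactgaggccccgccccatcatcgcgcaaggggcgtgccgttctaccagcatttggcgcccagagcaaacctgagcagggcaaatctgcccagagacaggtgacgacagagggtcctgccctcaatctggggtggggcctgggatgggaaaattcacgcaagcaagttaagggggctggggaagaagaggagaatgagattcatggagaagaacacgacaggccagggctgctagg
Counted from the 5′ end, TTCCCAGAA takes bases 154 to 162 of the Psmb8 window and TTCCCCGAA bases 161 to 169 of the Irf1 window. The starts of Psmb9 and Tap1 lie 226 bases apart, facing away from each other. A match is a description of these letters only, and binding was not measured.

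The libraries held between 9365 and 10182 barcodes and between 6466973 and 7660682 UMIs, and 38481 of 39074 barcodes were kept. Kept nuclei were shallow, with medians from 598 to 714 UMIs. The barcode with the fewest UMIs had 308 in MRL/lpr 6 weeks and between 175 and 228 in the other 3 libraries. Any pair of libraries shared between 112 and 143 barcode sequences. Nuclei were placed in 11 classes by raw UMIs of marker genes, none of them a member, and classes are called by the name of their markers with the ending -like. All 16 proximal tubule markers were detected and 15 were enriched at least 3-fold in that class, although 1 of them, Slc13a1, was among its 10 leading genes. The 8 classes with at least 50 nuclei in every library were compared. The proximal tubule-like class held 5404 MRL/lpr and 4066 C57BL/6 nuclei at 6 weeks, and 5377 MRL/lpr and 4146 C57BL/6 nuclei at 10 weeks.

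In the proximal tubule, the reabsorbing epithelium that makes up most of the cortex, the set was higher in MRL/lpr than in C57BL/6 at both ages. The 9 members summed to 635 UMIs in MRL/lpr 6 weeks, against 222 in C57BL/6 6 weeks, and to 766 in MRL/lpr 10 weeks, against 236 in C57BL/6 10 weeks. Per 1000000 UMIs of the class (CPM) these were 137 in MRL/lpr and 60 in C57BL/6 at 6 weeks, and 185 in MRL/lpr and 66.6 in C57BL/6 at 10 weeks. The fold of MRL/lpr over C57BL/6 was 2.28 (1.95 to 2.66) at 6 weeks, with 2.77 (2.39 to 3.22) at 10 weeks. All 9 members reached the minimum of 50 UMIs over the 4 libraries that was asked of a compared gene, Psmb9 with 56 and Cd274 with 58 being nearest to it. From the C57BL/6 libraries alone 4 of them did, Psmb10, Tap2, Tapbp and Irf1, and the other 5 reached it only with the MRL/lpr UMIs. Those 5, Psmb8, Psmb9, Tap1, Nlrc5 and Cd274, were therefore more likely to be compared where MRL/lpr is high, and the counts and medians over the 9 members are given as descriptions. Fewer cells with these RNAs and less RNA per cell cannot be told apart in such sums.

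In the 6-week pair 5 of the 9 members exceeded C57BL/6 by 2-fold or more, where 4.08% of all 11979 genes compared in the class did. At 10 weeks it was 6 of 9, against 6.78% of all genes. At both ages, which share no library, it was 5 of 9, namely Psmb8, Tap2, Nlrc5, Irf1 and Cd274, against 2.45% of all genes. Of these 5, Tap2 and Irf1 did not need the MRL/lpr UMIs to be compared. In the weaker sense of lying above 1 at both ages, 8 of 9 did, all but Psmb10, against 32.3% of all genes. The median log2 ratio of the members was 1.26 at 6 weeks and 1.85 at 10 weeks, beside -0.02 and 0.06 over all genes. The whole counting interval lay above 1 at both ages for 5 of 9, Psmb8, Tap2, Tapbp, Nlrc5 and Irf1, where it did for 9.71% of all genes, and of these Tap2, Tapbp and Irf1 did not need the MRL/lpr UMIs.

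**Figure D1:**
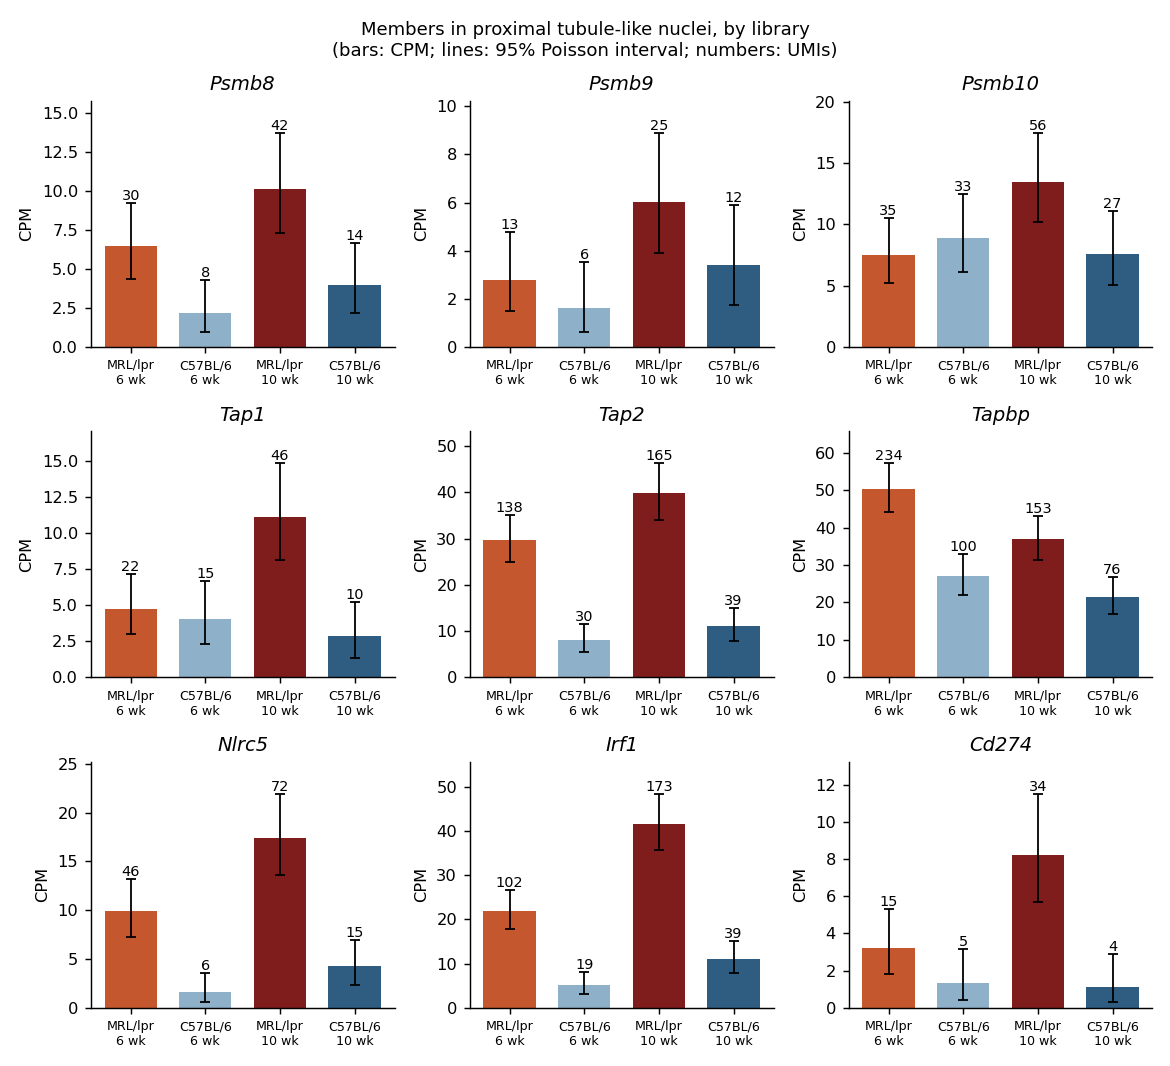
CPM of each member in proximal tubule-like nuclei (y axis, a scale of its own per gene) in the 4 libraries (x axis, MRL/lpr left of C57BL/6 at each age). Bars are single libraries, lines 95% Poisson intervals and numbers UMIs; for every member but Psmb9 and Psmb10 both MRL/lpr bars stand above both C57BL/6 bars, while Psmb10 at 6 weeks is 7.52 CPM in MRL/lpr and 8.91 CPM in C57BL/6.

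Among the inducible proteasome subunits, Psmb8, which encodes the chymotrypsin-like subunit LMP7, had 30 UMIs in MRL/lpr 6 weeks, against 8 in C57BL/6 6 weeks, and 42 in MRL/lpr 10 weeks, against 14 in C57BL/6 10 weeks. These were 6.45 CPM in MRL/lpr and 2.16 CPM in C57BL/6 at 6 weeks, and 10.1 CPM in MRL/lpr and 3.95 CPM in C57BL/6 at 10 weeks. Both MRL/lpr libraries lay above both C57BL/6 libraries, with folds of 2.98 (1.34 to 7.53) and 2.56 (1.37 to 5.08). Psmb9, which encodes LMP2, had 13 UMIs in MRL/lpr 6 weeks, against 6 in C57BL/6 6 weeks, and 25 in MRL/lpr 10 weeks, against 12 in C57BL/6 10 weeks. Its folds of 1.72 (0.612 to 5.53) and 1.78 (0.862 to 3.89) have intervals that reach below 1, so no difference was detectable at this depth, and MRL/lpr 6 weeks (2.79 CPM) lay below C57BL/6 10 weeks (3.39 CPM).

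Psmb10, which encodes the trypsin-like subunit MECL-1 and lies outside the MHC, had a fold under 1 at 6 weeks, within counting error. It had 35 UMIs in MRL/lpr 6 weeks, against 33 in C57BL/6 6 weeks, and 56 in MRL/lpr 10 weeks, against 27 in C57BL/6 10 weeks. These were 7.52 CPM in MRL/lpr and 8.91 CPM in C57BL/6 at 6 weeks, and 13.5 CPM in MRL/lpr and 7.62 CPM in C57BL/6 at 10 weeks. The fold was 0.844 (0.510 to 1.40) at 6 weeks, with 1.77 (1.1 to 2.92) at 10 weeks, so MRL/lpr 10 weeks stood alone above the other 3 libraries. Gm16156, annotated across Psmb10 on the other strand, had 6 UMIs in each library at 6 weeks, and 18 in MRL/lpr and 14 in C57BL/6 at 10 weeks.

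Tap2, which encodes 1 of the 2 chains of the peptide transporter, had 138 UMIs in MRL/lpr 6 weeks, against 30 in C57BL/6 6 weeks, and 165 in MRL/lpr 10 weeks, against 39 in C57BL/6 10 weeks. On the CPM scale this was 29.7 in MRL/lpr and 8.10 in C57BL/6 at 6 weeks, and 39.8 in MRL/lpr and 11.0 in C57BL/6 at 10 weeks, with folds of 3.66 (2.45 to 5.63) and 3.62 (2.54 to 5.27). The ratio was thus nearly equal at the 2 ages, and the 2 strains did not overlap. Tap1, which encodes its partner in the same heterodimer, had 22 UMIs in MRL/lpr 6 weeks, against 15 in C57BL/6 6 weeks, and 46 in MRL/lpr 10 weeks, against 10 in C57BL/6 10 weeks. Its fold was 1.17 (0.579 to 2.42) at 6 weeks, not detectable at this depth, and 3.93 (1.96 to 8.74) at 10 weeks.

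Tapbp, which encodes tapasin, had 234 UMIs in MRL/lpr 6 weeks, against 100 in C57BL/6 6 weeks, and 153 in MRL/lpr 10 weeks, against 76 in C57BL/6 10 weeks. It had the most UMIs of the members in every library but MRL/lpr 10 weeks, where Irf1 had 173 and Tap2 165. Its CPM was 50.3 in MRL/lpr and 27.0 in C57BL/6 at 6 weeks, and 36.9 in MRL/lpr and 21.4 in C57BL/6 at 10 weeks. This gave folds of 1.86 (1.47 to 2.38) and 1.72 (1.30 to 2.30), both under 2, with the strains apart. Zbtb22, which overlaps Tapbp on the same strand, had 24 UMIs in MRL/lpr 6 weeks, against 29 in C57BL/6 6 weeks, and 19 in MRL/lpr 10 weeks, against 23 in C57BL/6 10 weeks.

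The 2 regulators, both outside the MHC, had ranges in the strains that did not overlap. Nlrc5 had 46 UMIs in MRL/lpr 6 weeks, against 6 in C57BL/6 6 weeks, and 72 in MRL/lpr 10 weeks, against 15 in C57BL/6 10 weeks. Its CPM was 9.89 in MRL/lpr and 1.62 in C57BL/6 at 6 weeks, and 17.4 in MRL/lpr and 4.23 in C57BL/6 at 10 weeks, with folds of 6.10 (2.60 to 17.5) and 4.10 (2.33 to 7.71). Irf1 had 102 UMIs in MRL/lpr 6 weeks, against 19 in C57BL/6 6 weeks, and 173 in MRL/lpr 10 weeks, against 39 in C57BL/6 10 weeks. With 21.9 CPM in MRL/lpr and 5.13 in C57BL/6 at 6 weeks, and 41.7 in MRL/lpr and 11.0 in C57BL/6 at 10 weeks, its folds were 4.27 (2.60 to 7.39) and 3.79 (2.67 to 5.51). For both genes the lower MRL/lpr library, at 6 weeks, lay above the higher C57BL/6 library, at 10 weeks.

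Cd274, the inhibitory ligand of PD-1 on T cells, had 15 UMIs in MRL/lpr 6 weeks, against 5 in C57BL/6 6 weeks, and 34 in MRL/lpr 10 weeks, against 4 in C57BL/6 10 weeks. The values were 3.22 CPM in MRL/lpr and 1.35 CPM in C57BL/6 at 6 weeks, and 8.2 CPM in MRL/lpr and 1.13 CPM in C57BL/6 at 10 weeks. The fold of 2.39 at 6 weeks has an interval from 0.825 to 8.40, and that of 7.27 at 10 weeks one from 2.59 to 28.2. With each nucleus thinned to 300 UMIs, its log2 ratio at 6 weeks was -0.42 in place of 1.26.

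Split by location, the 5 MHC members summed to 437 UMIs in MRL/lpr 6 weeks, against 159 in C57BL/6 6 weeks, and to 431 in MRL/lpr 10 weeks, against 151 in C57BL/6 10 weeks, folds of 2.19 (1.82 to 2.64) and 2.44 (2.02 to 2.96). The 4 members outside the MHC summed to 198 UMIs in MRL/lpr and 63 in C57BL/6 at 6 weeks, and to 335 in MRL/lpr and 85 in C57BL/6 at 10 weeks, with folds of 2.50 (1.88 to 3.38) and 3.37 (2.65 to 4.33). Irf1 and Nlrc5 held most of the UMIs of these 4 in MRL/lpr. The part of haplotype differences in the counts of the MHC members was not tested.

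With age, the members outside the MHC had summed ratios of 10 over 6 weeks above 1 in both strains. The MHC sum was nearly level with members on both sides of 1. In C57BL/6 the members outside the MHC also lay on both sides. Psmb10 had 0.855 (0.494 to 1.47) and Cd274 0.836 (0.166 to 3.88), while Nlrc5 had 2.61 (0.957 to 8.21) and Irf1 2.14. Outside the MHC the CPM was 80.8 at 10 weeks and 42.6 at 6 weeks in MRL/lpr, a fold of 1.90 (1.59 to 2.27), and 24.0 at 10 weeks and 17 at 6 weeks in C57BL/6, a fold of 1.41 (1.01 to 1.98). In the MHC it was 104 at 10 weeks and 94.0 at 6 weeks in MRL/lpr (1.11, 0.966 to 1.27), and 42.6 at 10 weeks and 42.9 at 6 weeks in C57BL/6 (0.992, 0.789 to 1.25). These age ratios share their libraries with the strain ratios. Irf1 alone of the 9 had its whole interval above 1 in both strains, at 1.90 (1.48 to 2.45) in MRL/lpr and 2.14 (1.21 to 3.93) in C57BL/6. In MRL/lpr 3 of 9 members were at least 2-fold higher at 10 weeks (Psmb9, Tap1 and Cd274), where 2.89% of all genes were, and in C57BL/6 3 of 9 (Psmb9, Nlrc5 and Irf1), where 1.57% were.

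Of the MHC members in MRL/lpr, Psmb9 had a ratio of 10 over 6 weeks of 2.16 (1.06 to 4.59), Tap1 of 2.35 (1.38 to 4.09), Tap2 of 1.34 (1.06 to 1.69) and Psmb8 of 1.57 (0.96 to 2.6). Whole intervals lay above 1 for 7 of 9 members in MRL/lpr with age, where 20.4% of all genes did, and for 1 of 9 in C57BL/6, where 11.3% did. Tapbp, which holds many of the UMIs of the MHC sum, lay below 1, with 36.9 CPM at 10 weeks and 50.3 CPM at 6 weeks in MRL/lpr (0.733, 0.594 to 0.903) and 21.4 CPM at 10 weeks and 27.0 CPM at 6 weeks in C57BL/6 (0.794, 0.581 to 1.08). The median log2 age ratio of the members was 0.84 in MRL/lpr and 0.44 in C57BL/6, beside 0.03 and -0.07 over all genes. Whether the age ratios differ between the strains was not tested.

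Exchange of catalytic subunits takes place in protein, which was not measured. What the RNA gives is the share of UMIs within each pair that belong to the inducible gene. Shares compare libraries and classes for the same pair, not the pairs with each other, since capture may differ between genes. For Psmb8 beside Psmb5 in proximal tubule-like nuclei the share was 12.0% (8.28 to 16.8) in MRL/lpr 6 weeks, against 3.54% (1.54 to 6.86) in C57BL/6 6 weeks, and 27.3% (20.4 to 35.0) in MRL/lpr 10 weeks, against 7.29% (4.04 to 11.9) in C57BL/6 10 weeks. Intervals of the strains did not meet at either age. The constitutive gene Psmb5 was itself lower in MRL/lpr, with 47.1 CPM in MRL/lpr and 58.9 CPM in C57BL/6 at 6 weeks, a fold of 0.8, and 27.0 CPM in MRL/lpr and 50.2 CPM in C57BL/6 at 10 weeks, a fold of 0.538.

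For Psmb9 beside Psmb6 the share was 2.69% in MRL/lpr 6 weeks, against 1.75% in C57BL/6 6 weeks, and 8.25% (5.41 to 11.9) in MRL/lpr 10 weeks, against 3.52% (1.83 to 6.07) in C57BL/6 10 weeks. Psmb10 beside Psmb7 gave 15.0% in MRL/lpr 6 weeks, against 19.1% in C57BL/6 6 weeks, and 29.3% (23.0 to 36.3) in MRL/lpr 10 weeks, against 16.6% (11.2 to 23.2) in C57BL/6 10 weeks. MRL/lpr 10 weeks thus had the highest share in all 3 pairs, although the intervals of the strains met for Psmb9 and Psmb10. Psmb6 had strain folds of 1.12 at 6 weeks and 0.722 at 10 weeks, and Psmb7 1.13 and 0.848. A share also rises where the constitutive gene falls. The ratios of 10 over 6 weeks in MRL/lpr were 0.574 for Psmb5, 0.662 for Psmb6 and 0.761 for Psmb7. In C57BL/6 they were 0.853, 1.02 and 1.01. Kept nuclei of MRL/lpr 10 weeks also had the lowest mean mitochondrial percent, 0.14, against 0.275 in MRL/lpr 6 weeks. It was 0.353 in C57BL/6 6 weeks and 0.311 in C57BL/6 10 weeks. Whether such differences between libraries bear on the shares was not tested.

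**Figure D2:**
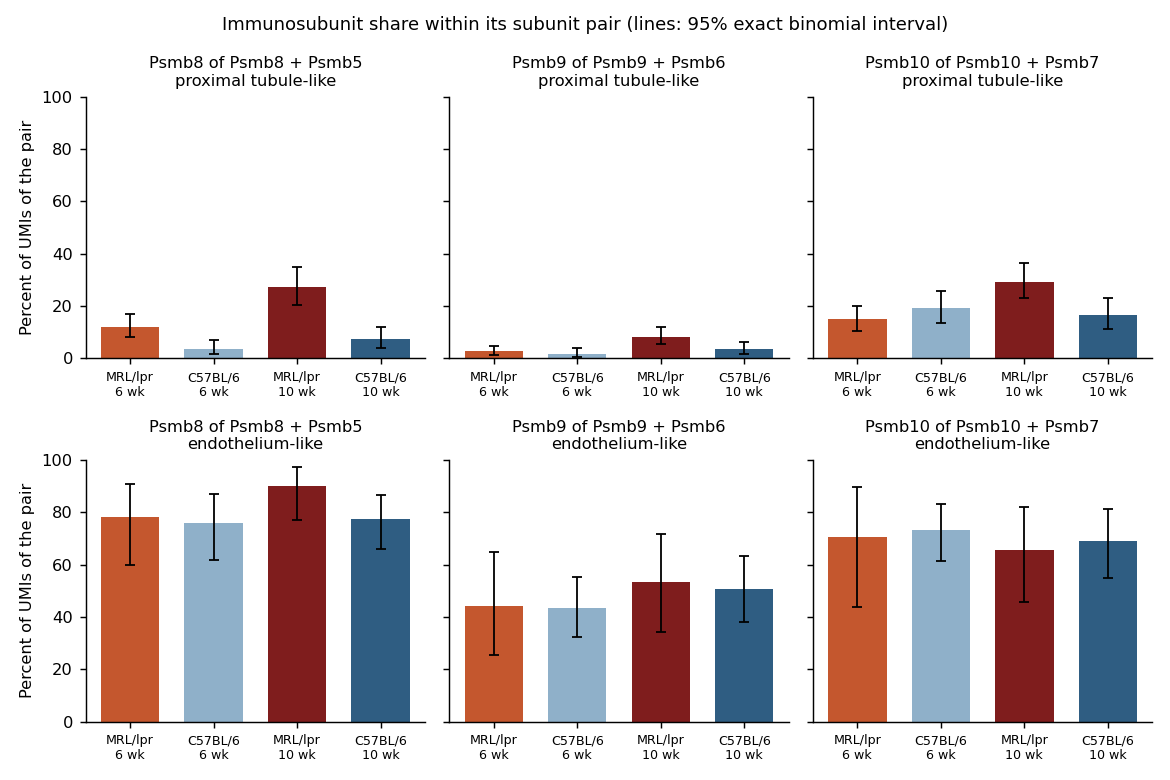
Share of an inducible subunit's UMIs within its pair (y axis, percent) in the 4 libraries (x axis), in proximal tubule-like nuclei above and endothelium-like nuclei below, with 95% exact binomial intervals. In the proximal tubule row Psmb8 reaches 27.3% in MRL/lpr 10 weeks, against 7.29% in C57BL/6 10 weeks, and in the endothelium row the 4 Psmb8 shares lie between 76.0% and 90.2%.

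Endothelium-like nuclei, which line the vessels, had higher shares, with intervals that overlapped between the strains for every pair. There Psmb8 made up 78.1% in MRL/lpr 6 weeks, against 76.0% in C57BL/6 6 weeks, and 90.2% in MRL/lpr 10 weeks, against 77.5% in C57BL/6 10 weeks. For Psmb9 the 4 shares lay between 43.6% and 53.3% and for Psmb10 between 65.5% and 73.2%, with all intervals overlapping.

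Every member was also highest in the endothelium-like class, with the range over the 4 libraries apart from that of the next class for all 9. The summed members averaged 1758 CPM there (1477 to 2043), against 469 in fibroblast-like, 436 in podocyte-like, 274 in principal cell-like, 205 in intercalated cell-like, 194 in thick ascending limb-like, 169 in distal convoluted and connecting tubule-like and 112 in proximal tubule-like nuclei. Below the endothelium, each class overlapped its neighbour in this order over the 4 libraries. Proximal tubule-like nuclei were last for 6 members, and sixth for Psmb9, Irf1 and Cd274. Macrophage-like nuclei were too few to be compared (19 to 57 UMIs of the members in 3 libraries and 15 in MRL/lpr 6 weeks), but their sums reached 1124 CPM in MRL/lpr 6 weeks, against 1473 in C57BL/6 6 weeks, and 1854 in MRL/lpr 10 weeks, against 1271 in C57BL/6 10 weeks.

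**Figure D3:**
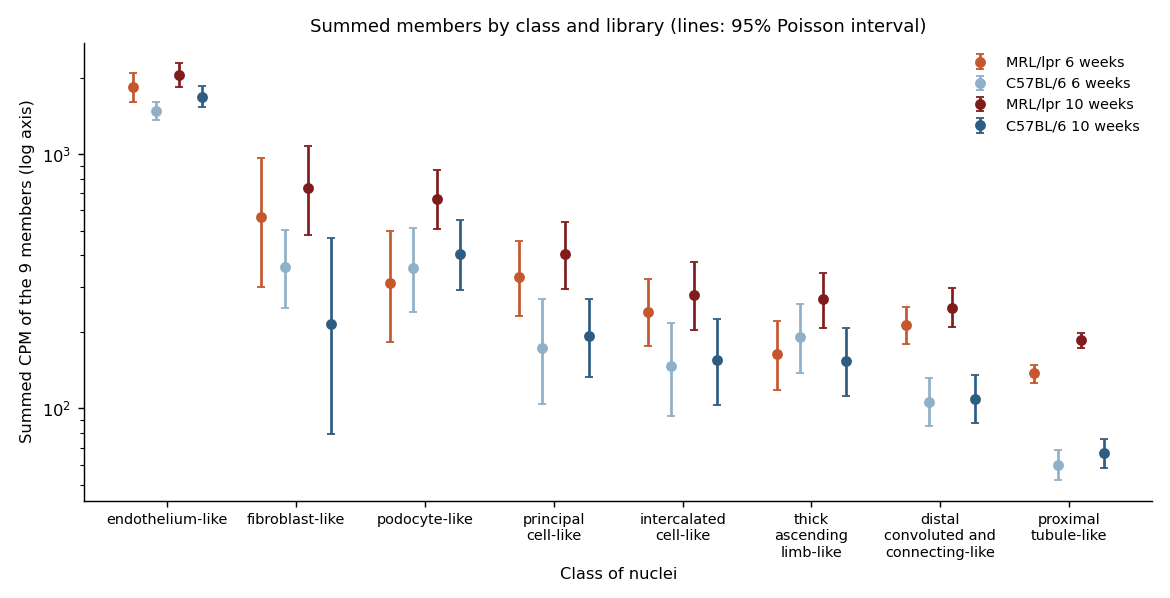
Summed CPM of the 9 members (y axis, log scale) by class (x axis, from highest to lowest mean) in the 4 libraries, with 95% Poisson intervals. The endothelium-like points lie between 1477 and 2043 CPM and near each other, and in the proximal tubule-like class the MRL/lpr points (137 and 185 CPM) stand above the C57BL/6 points (60 and 66.6 CPM).

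In the endothelium-like class the ratio between strains was small. The members summed to 1832 CPM in MRL/lpr 6 weeks, against 1477 in C57BL/6 6 weeks, and to 2043 in MRL/lpr 10 weeks, against 1682 in C57BL/6 10 weeks, folds of 1.24 (1.06 to 1.44) and 1.21 (1.05 to 1.40). With endothelial nuclei thinned to 300 UMIs the log2 ratio at 10 weeks was -0.01 in place of 0.28, and this keeps 213 of 497 MRL/lpr and 371 of 825 C57BL/6 nuclei. Cd274, with 45 UMIs, missed the minimum. Of the other 8 members 0 exceeded C57BL/6 by 2-fold or more at 6 weeks, where 3.01% of the 4445 genes compared did, and 1 did at 10 weeks, where 4.61% did. That gene was Nlrc5, with 128 CPM in MRL/lpr 6 weeks, against 77.9 in C57BL/6 6 weeks, and 207 in MRL/lpr 10 weeks, against 68.3 in C57BL/6 10 weeks, folds of 1.64 (0.851 to 3.05) and 3.03 (1.67 to 5.71).

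Irf1 in this class had 210 CPM in MRL/lpr 6 weeks, against 171 in C57BL/6 6 weeks, and 226 in MRL/lpr 10 weeks, against 220 in C57BL/6 10 weeks, so its folds of 1.23 and 1.02 stand beside 4.27 and 3.79 in the proximal tubule. For Tap2 the endothelial folds were 1.34 (0.928 to 1.90) and 1.43 (1.02 to 2.02), and for Psmb8 1.97 (1.14 to 3.34) and 1.08 (0.692 to 1.67). Whether the strain ratio differs between the classes was not tested, since each class has 1 library per group.

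**Figure D4:**
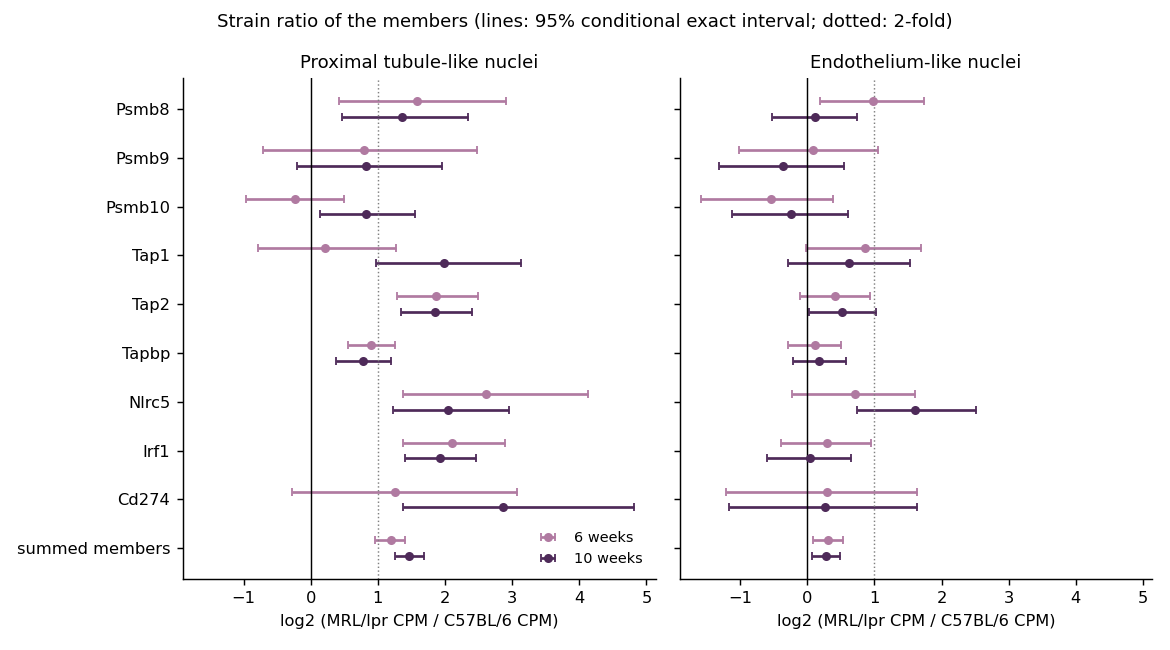
log2 ratio of MRL/lpr over C57BL/6 CPM (x axis) for each member and their sum (y axis), in proximal tubule-like nuclei on the left and endothelium-like nuclei on the right, with 95% conditional exact intervals. The summed members lie at 1.19 and 1.47 in the proximal tubule-like class and at 0.31 and 0.28 in the endothelium-like class, 6 weeks above 10 weeks.

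The distal tubule and collecting duct classes lay above 1 at both ages, on fewer UMIs than the proximal tubule. In distal convoluted and connecting tubule-like nuclei the members summed to 213 CPM in MRL/lpr 6 weeks, against 106 in C57BL/6 6 weeks, and to 249 in MRL/lpr 10 weeks, against 109 in C57BL/6 10 weeks, folds of 2.01 (1.53 to 2.66) and 2.29 (1.73 to 3.05). Principal cell-like nuclei, the water-reabsorbing cells of the collecting duct, gave folds of 1.90 (1.06 to 3.50) and 2.10 (1.31 to 3.38), and intercalated cell-like nuclei, which handle acid and base, 1.65 (0.984 to 2.82) and 1.81 (1.1 to 3.02). Fibroblast-like nuclei had 13 UMIs in MRL/lpr 6 weeks, against 34 in C57BL/6 6 weeks, and 26 in MRL/lpr 10 weeks, against 6 in C57BL/6 10 weeks, with folds of 1.57 (0.758 to 3.04) and 3.44 (1.38 to 10.2).

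At 6 weeks 2 classes lay just under 1. Thick ascending limb-like nuclei had 163 CPM in MRL/lpr and 191 in C57BL/6 at 6 weeks (0.854, 0.547 to 1.34), and 268 in MRL/lpr and 154 in C57BL/6 at 10 weeks (1.74, 1.17 to 2.61). Podocyte-like nuclei had 312 CPM in MRL/lpr and 356 in C57BL/6 at 6 weeks (0.875, 0.451 to 1.65), and 668 in MRL/lpr and 406 in C57BL/6 at 10 weeks (1.64, 1.08 to 2.51). At 10 weeks all 8 classes thus had a summed fold above 1 with its whole interval, and at 6 weeks 4 of 8 did. Over all kept nuclei the fold was 1.11 (1.03 to 1.19) at 6 weeks, with 1.62 (1.51 to 1.74) at 10 weeks. Class makeup differed between these libraries, and endothelium-like nuclei numbered 320 in MRL/lpr 6 weeks, against 1273 in C57BL/6 6 weeks, and 497 in MRL/lpr 10 weeks, against 825 in C57BL/6 10 weeks.

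The share of proximal tubule-like nuclei with a UMI of any member was 9.72% in MRL/lpr 6 weeks, against 5.09% in C57BL/6 6 weeks, and 11.1% in MRL/lpr 10 weeks, against 5.35% in C57BL/6 10 weeks. Thinned to 300 UMIs a nucleus, the shares were 3.72% in MRL/lpr and 1.90% in C57BL/6 at 6 weeks, and 4.65% in MRL/lpr and 1.84% in C57BL/6 at 10 weeks. Shallower nuclei left out numbered 0 in MRL/lpr and 21 in C57BL/6 at 6 weeks, and 103 in MRL/lpr and 72 in C57BL/6 at 10 weeks. Podocyte-like nuclei, set as the class to read such shares against, had 14.7% in MRL/lpr 6 weeks, against 14.2% in C57BL/6 6 weeks, and 31.7% in MRL/lpr 10 weeks, against 17.1% in C57BL/6 10 weeks, at median depths of 436 to 586 UMIs, against 745 to 865 in the proximal tubule-like class. The proximal tubule shares are below these. Podocyte-like nuclei themselves hold more of these RNAs, with a mean of 436 CPM summed, against 112 in proximal tubule-like nuclei. The comparison thus cannot decide which nuclei express the genes, and the shares are not read as nuclei that do.

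Markers of other cell types in the proximal tubule-like class did not all lie on one side. The 13 endothelium markers, all detected in every library, summed to 176 CPM in MRL/lpr 6 weeks, against 272 in C57BL/6 6 weeks, and to 129 in MRL/lpr 10 weeks, against 203 in C57BL/6 10 weeks, lower in MRL/lpr at both ages. The 12 macrophage markers, of which 10 or 11 were detected and Cd163 was at 0 in every library, were higher in MRL/lpr, at 38.9 CPM in MRL/lpr 6 weeks, against 22.7 in C57BL/6 6 weeks, and 62.9 in MRL/lpr 10 weeks, against 31.6 in C57BL/6 10 weeks. The 17 lymphocyte markers, of which 14 to 16 were detected, summed to 255 CPM in MRL/lpr 6 weeks, against 198 in C57BL/6 6 weeks, and 222 in MRL/lpr 10 weeks, against 206 in C57BL/6 10 weeks. In endothelium-like nuclei this list summed to 15 CPM in MRL/lpr and 20.1 in C57BL/6 at 6 weeks, and 30.5 and 34.2 at 10 weeks. In the lymphocyte-like class 6 of the 17 were enriched at least 3-fold. The source of these UMIs in the proximal tubule-like class was not tested. Next, every nucleus with a UMI of any endothelium, macrophage or lymphocyte marker was left out. This left 3825 MRL/lpr and 2707 C57BL/6 nuclei at 6 weeks, and 3992 MRL/lpr and 2994 C57BL/6 nuclei at 10 weeks. The summed log2 ratio was then 1.26 at 6 weeks and 1.53 at 10 weeks, beside 1.19 and 1.47 with them.

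Among the rest of the pathway in proximal tubule-like nuclei, read from lists of other genes, the constitutive core of the proteasome was not on the side of the members. Of the 3 constitutive catalytic subunits 0 lay above 1 at both ages and 1, Psmb5, lay below. Of the 11 other 20S subunits 0 exceeded C57BL/6 at both ages, where 32.3% of all genes did, and 8 were lower, where 28.8% of all genes were. Psma6 had folds of 0.862 and 0.615 and Psma5 of 0.810 and 0.729 at 6 and 10 weeks, and none of the 11 reached 2-fold. Of 7 genes of proteasome activators and assembly 3 were higher at both ages, where 32.3% of all genes were, and 1 was lower, where 28.8% were. The assembly factor gene Pomp was among the higher ones, with folds of 1.28 and 1.46.

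Of 8 genes of peptide trimming and loading 2 were higher at both ages, where 32.3% of all genes were. They were the aminopeptidase gene Erap1 (1.35 and 1.42) and Tapbpl (1.19 and 1.5), which encodes a relative of tapasin. Tapbpl, with 28 UMIs in C57BL/6 6 weeks and 20 in C57BL/6 10 weeks, reached the minimum of 50 only with the MRL/lpr UMIs. B2m and H2-K1, genes of the class I molecules themselves, had folds above 1 at 6 weeks but under 1 at 10 weeks. B2m, the class I light chain, had 687 CPM in MRL/lpr 6 weeks, against 246 in C57BL/6 6 weeks, a fold of 2.79, but 507 in MRL/lpr 10 weeks, against 558 in C57BL/6 10 weeks, a fold of 0.909. H2-K1, a class I heavy chain that differs in sequence between these strains, had folds of 1.12 and 0.517.

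In interferon gamma signalling 9 of 12 genes could be compared. Of these 6 were higher at both ages, where 32.3% of all genes were, and 1 was lower, where 28.8% were. Irf8 had folds of 1.42 and 2.08, Irf9 of 1.25 and 1.78 and the kinase gene Jak1 of 1.14 and 1.46. Of 4 genes of MHC transactivation 1 was higher and 1 was lower at both ages, beside the same shares of all genes. The higher one was Ciita, the class II counterpart of Nlrc5, with folds of 3.1 and 1.97. Ciita, with 9 UMIs in C57BL/6 6 weeks and 20 in C57BL/6 10 weeks, reached the minimum of 50 only with the MRL/lpr UMIs.

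Ifng itself had 2 UMIs in MRL/lpr 10 weeks and 0 in the other 3 libraries over all kept nuclei, so its source could not be seen at this depth. Of the PD-1 axis, Pdcd1 had 2 UMIs in MRL/lpr 6 weeks, 3 in C57BL/6 10 weeks and 0 in the other libraries, and Cmtm6, which stabilises PD-L1, was the 1 gene of 4 that could be compared in proximal tubule-like nuclei, with folds of 1.47 and 1.00.

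The IRG and GBP GTPases are interferon-induced genes of cell-autonomous defence. Of their 15 genes 7 could be compared, 5 of them only with the MRL/lpr UMIs, so the count is a description. All 7 lay above 1 at each age, where 32.3% of all genes did. It was 5 of these by 2-fold or more at each, against 2.45% of all genes. Iigp1 had 117 UMIs in MRL/lpr 6 weeks, against 8 in C57BL/6 6 weeks, and 329 in MRL/lpr 10 weeks, against 27 in C57BL/6 10 weeks, folds of 11.6 and 10.4. Gbp6 had folds of 7.43 and 6.55, Igtp of 6.57 and 3.66, Irgm2 of 3.22 and 3.29, Irgm1 of 1.43 and 1.65 and Gbp7 of 1.34 and 1.75. Tgtp1 had 25 UMIs in MRL/lpr 6 weeks, against 0 in C57BL/6 6 weeks, at least 6.63-fold higher against the 3 UMIs per library that a count of 0 allows, and a fold of 7.27 at 10 weeks. Tgtp1 has a nearly identical copy, Tgtp2, so its UMIs are uncertain.

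In 3 of the 4 libraries the summed members were higher in the proximal tubule-like nuclei that held at least 2 UMIs of these 15 GTPase genes, a split that uses no member, than in the other nuclei of the class. There were 78 such nuclei in MRL/lpr 6 weeks (1.44%), against 10 in C57BL/6 6 weeks (0.246%), and 143 in MRL/lpr 10 weeks (2.66%), against 17 in C57BL/6 10 weeks (0.410%). The members summed to 1145 CPM in them and 117 CPM in the other nuclei of MRL/lpr 6 weeks, a fold of 9.75 (7.79 to 12.1), and to 1265 and 150 CPM in MRL/lpr 10 weeks, a fold of 8.41 (7.03 to 10.0). In C57BL/6 10 weeks it was 645 and 63.3 CPM, a fold of 10.2 (5.34 to 17.8), from 13 UMIs in the 17 nuclei. The 10 nuclei of C57BL/6 6 weeks held 0 member UMIs, which leaves no fold there. Median depths were 888 and 791 UMIs in MRL/lpr 6 weeks and 822 and 744 UMIs in MRL/lpr 10 weeks, nuclei with the GTPase UMIs first.

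**Figure D5:**
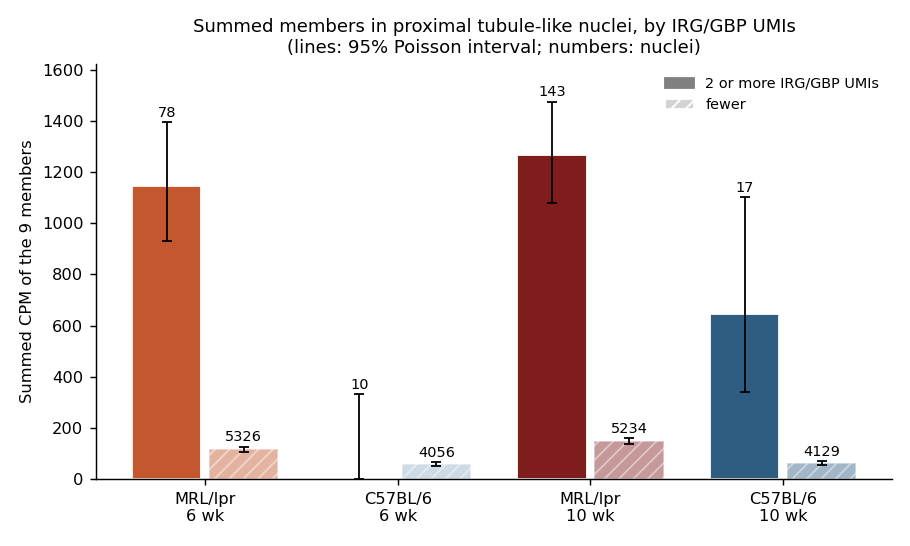
Summed CPM of the 9 members (y axis) in proximal tubule-like nuclei with at least 2 UMIs of IRG and GBP genes (solid bars) and in the others (hatched bars) of each library (x axis), with 95% Poisson intervals and the number of nuclei above. Solid bars reach 1145 CPM in MRL/lpr 6 weeks and 1265 CPM in MRL/lpr 10 weeks, against 117 and 150 CPM in the other nuclei.

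The share of a member's UMIs in these nuclei varied, on few UMIs for several members, and was not tested between members. Of all UMIs of the class these nuclei held 86459 of 4651334 in MRL/lpr 6 weeks and 128112 of 4146552 in MRL/lpr 10 weeks. In MRL/lpr 10 weeks they carried 47.1% of the Cd274 UMIs (16 of 34) and 34.1% of those of Irf1. For Tap2 it was 12.7% and for Tapbp 9.80%. In MRL/lpr 6 weeks it was 46.7% for Cd274 (7 of 15 UMIs), 36.3% for Irf1, 12.3% for Tap2 and 5.98% for Tapbp. Psmb9 had 24.0% (6 of 25 UMIs) at 10 weeks and 7.69% (1 of 13 UMIs) at 6 weeks in MRL/lpr. Nlrc5 had 25.0% at 10 weeks and 13.0% at 6 weeks. The other 3 members lay between 14.3% and 23.9% at 10 weeks and between 8.57% and 31.8% at 6 weeks. Irf1 stood at 461 CPM in these nuclei and 28.4 CPM in the others of MRL/lpr 10 weeks, a fold of 16.2 (11.6 to 22.4), and Tapbp had a fold of 3.41 (1.86 to 5.82).

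The ratio between strains was not held by the nuclei with at least 2 GTPase UMIs alone. Without them the summed members had folds of 1.95 (1.67 to 2.29) at 6 weeks and 2.38 (2.03 to 2.78) at 10 weeks, beside 2.28 and 2.77 with them. Tap2 then had folds of 3.26 (2.17 to 5.04) and 3.24 (2.26 to 4.74), Nlrc5 of 5.39 (2.27 to 15.6) and 3.38 (1.85 to 6.59) and Irf1 of 2.77 (1.64 to 4.89) and 2.86 (1.94 to 4.30). Psmb10 and Tap1 were the members under 1 at 6 weeks, at 0.784 (0.467 to 1.32) and 0.809 (0.368 to 1.78), and Cd274 at 6 weeks was at 1.29 (0.373 to 5.03). Nuclei with fewer than 2 GTPase UMIs stayed in, so nuclei whose GTPase RNAs were missed at this depth were not left out.

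Over 29 sums of class and library with at least 50000 UMIs, from 8 classes, the genes whose log2(CPM + 10) was most like that of the summed members, out of 11474, were Ehd4 (Pearson r = 0.93), Rbms1 (0.92), Bst2 (0.92), App (0.90) and Tmbim1 (0.90). Sums of 1 class share their cell type and sums of 1 library their preparation, and the high endothelial level weighs in all of them. Ehd4, which encodes an endocytic recycling protein, had 34.0 CPM in MRL/lpr 6 weeks, against 6.21 in C57BL/6 6 weeks, and 44.4 in MRL/lpr 10 weeks, against 5.64 in C57BL/6 10 weeks in proximal tubule-like nuclei. Bst2, which encodes the interferon-induced antiviral protein tetherin, had 33.5 CPM in MRL/lpr 6 weeks, against 12.2 in C57BL/6 6 weeks, and 26.5 in MRL/lpr 10 weeks, against 9.59 in C57BL/6 10 weeks. The other genes differed less between the strains in this class. At 6 weeks Rbms1 had 286 CPM in MRL/lpr and 183 in C57BL/6, App 542 and 471, and Tmbim1 14.8 and 14. At 10 weeks, in the same order, these were 265 and 188, 575 and 440, and 17.8 and 12.7. The sums by which the genes were picked include the proximal tubule-like ones, so their strain ratios are not a separate result.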

How the data were processed

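Nuclei of the kidney cortex of female mice were profiled, 1 library per strain and age. Per the labels, nuclei came from an iodixanol gradient and libraries from the Chromium 3′ v3.1 kit. The deposited values are raw UMI counts, 1 matrix a library. Cell Ranger made them: the file headers name version 5.0.0, the submitters' processing notes 3.1.0. The sources used here give no genome build or annotation and do not say if introns were included. Of 25636 gene IDs 25585 are in GENCODE mouse release 21.

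Barcodes with at least 200 genes and at most 10% mitochondrial UMIs were kept, with no correction for free RNA. For each class and library a background share of marker UMIs was taken from nuclei with under 1% of such UMIs. A nucleus joined the class with the smallest Poisson tail, if below 1e-04 with at least 3 marker UMIs from at least 2 markers. This rule was set after seeing the data. Within a factor of 100 of that limit lay 311 to 516 nuclei per library inside and 142 to 217 outside. Nuclei passing for 2 unlike classes were left out as mixed, 494 to 720 per library, as were 509 to 921 without a class. No other doublet removal was made. UMIs were summed per class and library and scaled to 1000000 UMIs (CPM). A gene was compared in a class if its 4 libraries together held 50 UMIs of it. Ratios carry conditional exact binomial intervals, shares exact binomial (Clopper-Pearson) intervals and levels Poisson intervals. A count of 0 was set at 3 UMIs for a fold. The ratios were run on simulated Poisson counts. The class rule was run on simulated nuclei drawn from the profiles of the classes it had itself set, which cannot check the classes. All 9 members are named, with at most 20 genes of the other lists, those with the largest mean strain ratio in size among compared genes, the constitutive partners Psmb5, Psmb6 and Psmb7, and the 5 genes most like the summed members. Cmtm6, Ifng and Pdcd1 fall outside this rule and were named after their values were seen. The result of 1 further gene is not reported here. The members and lists were chosen with earlier results of these data known. Python 3.11.15, numpy 2.4.6, scipy 1.17.1, pandas 2.3.3 and scanpy 1.11.5 were used.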

Additional observations from a re-analysis of the deposited data

Results flagged for a closer look

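A few ratios of the members lay on opposite sides of 1 in the groups set beside each other, and none of these differences was tested. In proximal tubule-like nuclei the log2 strain ratio of Psmb10 was 0.83 at 10 weeks and -0.24 at 6 weeks, a difference of 1.07. The age ratio of the same gene was -0.23 in C57BL/6 and 0.84 in MRL/lpr, and the difference of C57BL/6 minus MRL/lpr was -1.07. It uses the same 4 values. For Tap1 the log2 ratio of 10 over 6 weeks, 1.23 in MRL/lpr, stood at -0.52 in C57BL/6, a difference of -1.75 for C57BL/6 minus MRL/lpr, and for Cd274 it was 1.35 in MRL/lpr and -0.26 in C57BL/6, a difference of -1.61. In C57BL/6 these 2 genes rest on 15 UMIs or fewer in each library. The summed members had a log2 strain ratio of 0.80 at 10 weeks and -0.23 at 6 weeks in thick ascending limb-like nuclei, a difference of 1.03, and of 0.72 at 10 weeks and -0.19 at 6 weeks in podocyte-like nuclei, a difference of 0.91. All the ratios under 0 named here have intervals that include 0.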

How the results depend on the processing

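With 1 library per group no library could be left out. No paired analysis was possible because each group has 1 library. Of 853 values recomputed for 78 results under 12 alternatives, 835 stayed within the counting interval, or within 1.5 times for counts, 17 moved beyond it and 1 whose interval had excluded 0 changed sign. The alternatives that changed only the minimum of UMIs per gene could not move the members, which all passed 50 UMIs as reported. Those fixed values are counted in the 835. In proximal tubule-like nuclei the summed log2 ratio ranged from 1.06 to 1.26 at 6 weeks and from 1.25 to 1.54 at 10 weeks. The value 1.25, beside 1.47 as reported, came with nuclei passing for 2 classes kept. Thinning to 300 UMIs a nucleus left 2 members past 2-fold at 6 weeks and 3 at 10 weeks, beside 5 and 6, with 4 members left above 50 UMIs. It also gave the change of sign, -0.01 beside 0.28 in endothelium-like nuclei at 10 weeks, the cause of which was not tested. In proximal tubule-like nuclei the share of all genes past 2-fold at both ages was 1.99% with thinning and 3.23% with a minimum of 20 UMIs, beside 2.45%. For Cd274 at 6 weeks the log2 ratio ranged from -0.42 to 1.77. Leaving out proximal tubule-like nuclei with UMIs of markers of other cell types was chosen after seeing the data, and 7 members then passed 50 UMIs. Depth limits most single members, with 4 to 15 UMIs in C57BL/6 for Psmb8, Psmb9, Tap1, Nlrc5 and Cd274. A Scrublet alternative left out 751 to 834 barcodes per library.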
